A study of Mus musculus with 6 samples.

Results

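The genes described here encode the initiation factors (eIFs) and elongation factors (eEFs) of cytosolic protein synthesis, together with the eIF2 kinases, the eEF2 kinase and a few proteins that modify or bind the factors. They were taken from an array table of 21212 probe sets, 1 probe set per gene, by their symbols (those starting with Eif1 to Eif6, Eef1 or Eef2). The 4E-binding proteins, the Y-linked gene Eif2s3y and 4 pseudogenes were left out, which gave 61 genes. Of these, 4 (Eif1, Eif2s1, Eif3g and Eif4g1) carry no symbol in the platform annotation and were named through their Entrez number. The coding genes Eif3j1, Eif4a3l1, Eef1akmt3, Eef1akmt4, its readthrough Eef1akmt4-ece2 and Eif2s3x, whose symbols fit the same pattern, have no named probe set here and were not analysed.

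The arrays compared gastrocnemius and plantaris muscles of C26 mice, which carried tumors of the mouse colon carcinoma line C26, with those of control mice. All mice were individually housed CDF1 males, 8 weeks old when they entered the study; C26 mice were injected with C26 cells in PBS/matrigel under the skin of both flanks and control mice with PBS/matrigel alone, and muscles were taken 25 days later, when cachexia was severe. RNA from 2 to 3 muscles of a group, of 4 C26 mice and 3 control mice, was combined into 3 C26 pools (replicates 1, 3 and 4) and 3 control pools (replicates 1, 2 and 3), with 1 array per pool. Pools of a group may share a mouse, so the p-values given here measure only the spread between pools.

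In translation initiation, eIF4E binds the cap of the mRNA, the scaffold eIF4G joins it to the RNA helicase eIF4A, and eIF3 bridges this assembly to the small ribosomal subunit, to which eIF2 has brought the initiator tRNA. The exchange factor eIF2B reloads eIF2 with GTP, and this step is blocked when stress kinases phosphorylate eIF2. In elongation, eEF1A delivers aminoacyl-tRNAs and eEF2 moves the ribosome along the mRNA, and mature muscle fibers are known for using eEF1A2 in place of the widely expressed eEF1A1.

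Values are log2 RMA values, in which a difference of 1 is a doubling. Array medians lay between 4.93 and 5.02, the Pearson correlation was 0.994 to 0.996 between arrays of a group and 0.976 to 0.981 between groups, and the median log2 fold change of all probe sets was −0.05. A background level of 3.82 was set at the 95th percentile of 1290 olfactory and vomeronasal receptor probe sets, and all 61 genes lay above it in both groups. The words rose and fell are used of a gene in C26 muscle only where limma gave an adjusted p of at most 0.05 (Benjamini-Hochberg over every probe set) with a change of at least 1.5-fold.

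In C26 muscle 12 of the 61 genes rose and 1 fell. By the same rule 5.94% of all probe sets rose and 4.95% fell, and among the 14884 probe sets above background 8.3% rose and 6.87% fell. The 12 were subunits of eIF3 (Eif3a, Eif3e, Eif3g, Eif3j2, Eif3l and Eif3m), 2 subunits of eIF2B (Eif2b1 and Eif2b5), both cytosolic eIF4A helicases (Eif4a1 and Eif4a2), the scaffold Eif4g3 and the start-site factor Eif1a. The gene that fell was Eif4e, the cap-binding protein itself. By the adjusted p alone, 29 of the 61 were higher and 2 were lower, against 14.3% and 15.8% of all probe sets and 19.9% and 20.6% of those above background. The log2 fold change was positive for 46 of the 61 and had a median of 0.32 (range −0.75 to 1.06). All 3 C26 pools lay above all 3 control pools for 38 genes and below them for 9, against 19.3% and 24.6% of all probe sets and 26.1% and 29.7% of those above background. The methods' t-test, at the same thresholds, called 10 of the 61 higher and 1 lower, against 5.33% and 4.41% of all probe sets, and a test with unequal variances called 7 and 0, against 3.58% and 2.93%. In bulk muscle, fewer cells of a type and less RNA per cell cannot be told apart.

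**Figure D1:**
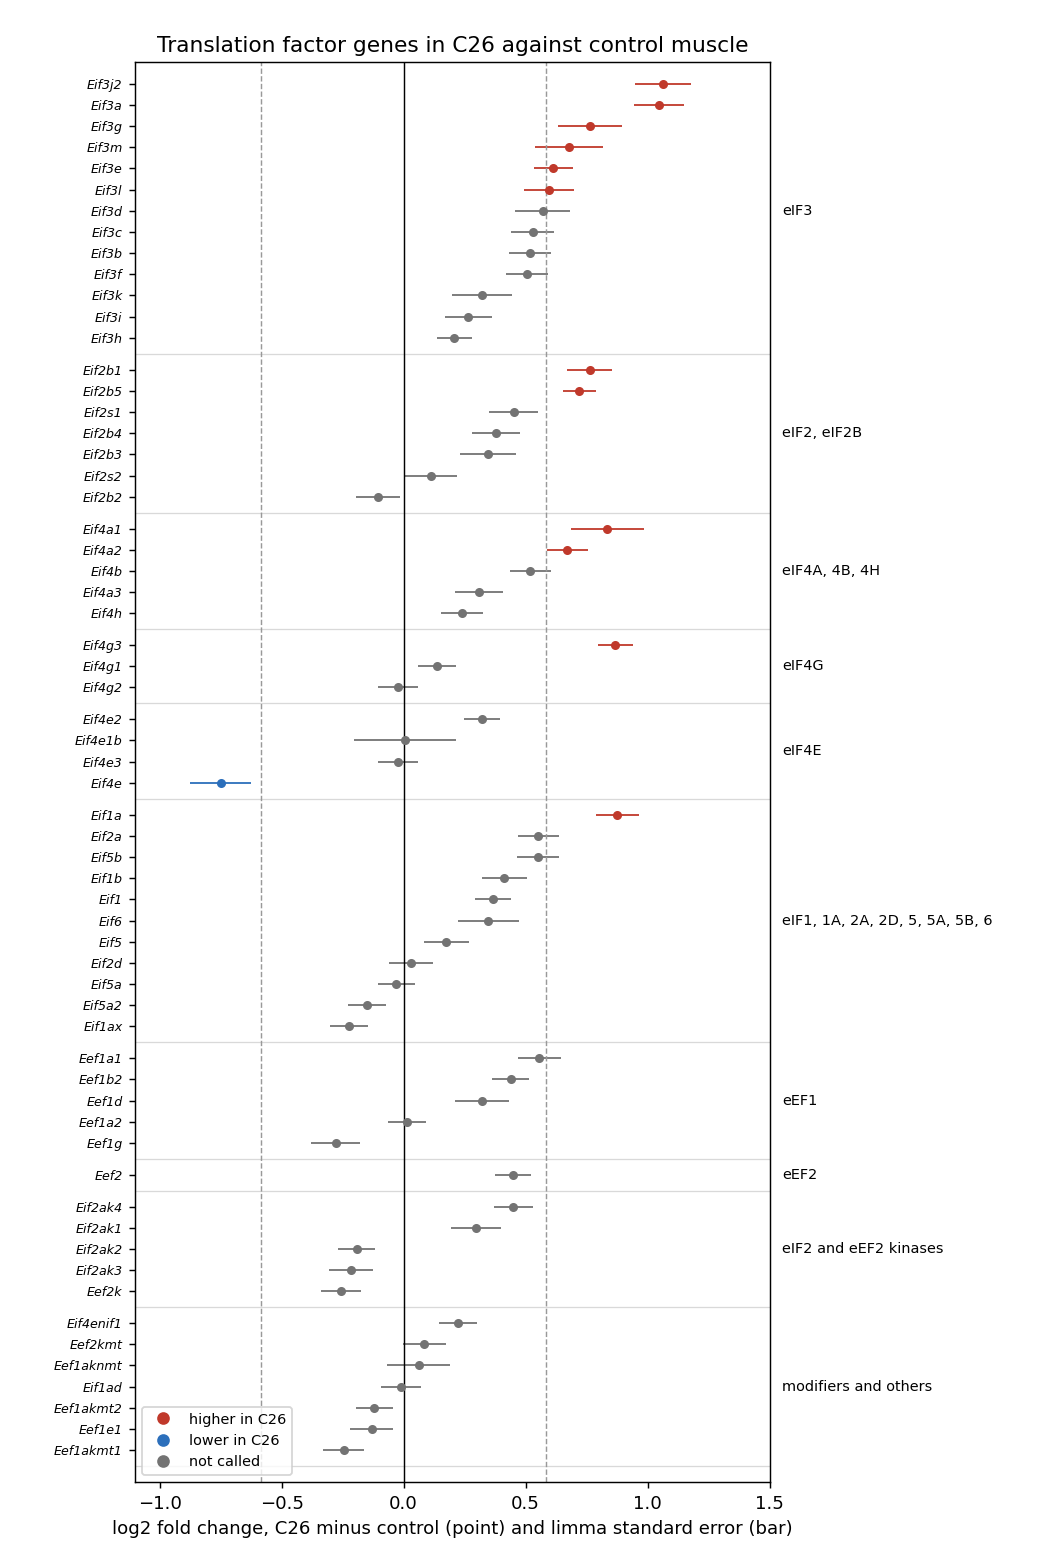
Log2 fold change (x axis, C26 minus control) of each of the 61 genes, with the limma standard error as a bar, grouped by role; dashed lines mark 1.5-fold. All 13 eIF3 genes lie to the right of 0, between 0.21 and 1.06, whereas the genes of kinases and modifying proteins lie on both sides of it.

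The complex eIF3, the largest of the initiation factors, had the most genes that rose, with 6 of 13. Among probe sets above background 8.3% rose. By the adjusted p alone 10 of the 13 were higher and 0 lower, against 19.9% and 20.6% of probe sets above background. The median log2 fold change was 0.57. The C26 pools lay above the control pools for 12 of the 13, against 26.1% of probe sets above background. Eif3j2, one of the copies of the gene for the loosely bound subunit eIF3j, had values of 9.78, 10.11 and 9.91 in C26 pools, against 8.99, 8.93 and 8.69 in control pools. Its log2 fold change of 1.06 (SE 0.11, limma adjusted p = 0.000208) was the largest of the 61, and since the near-identical copy Eif3j1 has no probe set of its own, which copy was measured is uncertain. Eif3a encodes the large scaffold subunit and had 9.40, 9.77 and 9.63 in C26 pools, against 8.53, 8.58 and 8.56 in control pools (log2 fold change 1.05, SE 0.10, limma adjusted p = 0.000132). Eif3j2 and Eif3a were the members of the set that changed by at least 2-fold.

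The other eIF3 subunits that rose did so by less. Eif3g, an RNA-binding subunit, had 7.55, 8.02 and 8.06 in C26 pools, against 7.10, 7.09 and 7.14 in control pools (log2 fold change 0.76, SE 0.13). Eif3m had 6.45, 6.72 and 6.80 in C26 pools, against 6.15, 5.70 and 6.08 in control pools (0.68, SE 0.14). For both genes C26 replicate 1 was the C26 pool nearest to the control pools, and the groups did not overlap. Eif3e, a subunit with a PCI domain, had 8.51, 8.63 and 8.64 in C26 pools, against 7.94, 7.94 and 8.06 in control pools (0.61, SE 0.08). Eif3l had 8.01, 8.29 and 8.37 in C26 pools, against 7.66, 7.61 and 7.60 in control pools (0.60, SE 0.10). The limma adjusted p-values of these 4 genes were 0.000576 to 0.0063. Eif3e and Eif3l lay close to the 1.5-fold minimum, and both fell short of it after quantile normalization (log2 fold change 0.52 for each) and after cyclic loess normalization (0.57 and 0.55). In a test with unequal variances the adjusted p was above 0.05 for Eif3a (0.0646), Eif3g (0.144), Eif3l (0.118) and Eif3m (0.0959), so these calls were lost.

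The remaining 7 eIF3 genes did not pass both thresholds. Eif3d, whose product can bind the cap of some mRNAs, stood just under the fold minimum, with 7.58, 7.84 and 8.02 in C26 pools and 7.25, 7.29 and 7.20 in control pools (log2 fold change 0.57, SE 0.11, limma adjusted p = 0.00528). Eif3c (0.53), Eif3b (0.52) and Eif3f (0.50), which encode core subunits, passed the adjusted p with values of 0.00215 to 0.00254. Eif3k (0.32), Eif3i (0.26) and Eif3h (0.21) passed neither threshold (limma adjusted p of 0.0631 to 0.0844), and Eif3k was the eIF3 gene whose groups overlapped. The 13 genes were uneven between the C26 pools. The median shift from the control mean was 0.38 in C26 replicate 1, 0.65 in replicate 3 and 0.66 in replicate 4, and replicate 1 was the lowest of the C26 pools for 13 of the 13 genes. Over all probe sets replicate 1 was the lowest C26 pool for 37.1%. The median SD of the 13 genes was 0.16 between C26 pools and 0.04 between control pools, against 0.10 and 0.10 over all probe sets.

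**Figure D2:**
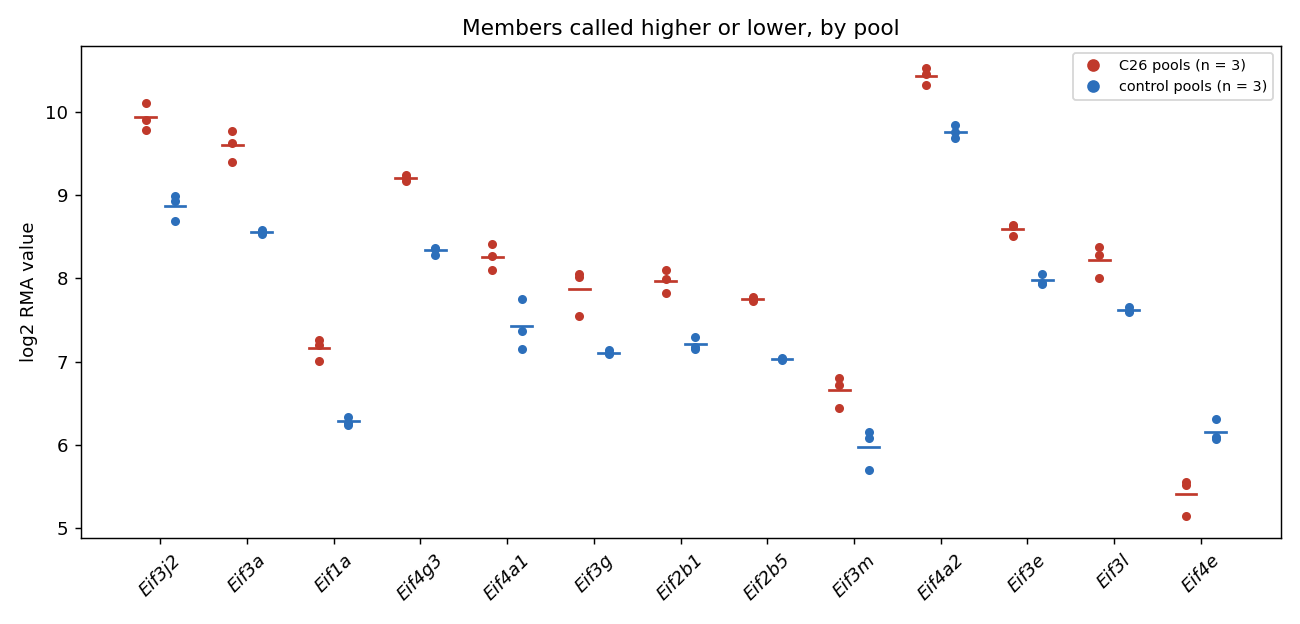
Log2 RMA values (y axis) of the 12 genes that rose and of Eif4e, with 1 point per pool (C26 left, control right, 3 pools each) and a line at each group mean. The groups do not overlap for any of the 13, and Eif4e is the gene whose C26 pools (5.15 to 5.56) lie below its control pools (6.07 to 6.31).

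Since the log2 fold change was positive for all 13 eIF3 genes, their promoters were read for shared letters. Of the 61 genes, 48 have a promoter in the RefSeq table used (build GRCm38.p6), among them 9 of the 13 eIF3 genes, and the 250 bases upstream of each start site were searched on both strands. The letters CCGGAAG, the core recognised by ETS factors, occurred upstream of 11 of the 48 genes (22.9%) and of 5 of the 9 eIF3 genes, against 7.83% of all 27025 genes in the table and 13.6% of the 10887 coding genes above background. The longer NRF1 core, searched with any base in the middle, occurred upstream of 7 of the 48 (14.6%, against 4.23% and 8.05%), Eif3a among them. These shares were not tested, and a match is a description of letters, not of binding. The last 100 bases before the start site are printed below for the 5 eIF3 genes with an ETS core and for Eif3a, 5′ to 3′ on the strand of the gene, with the ETS core or, in Eif3a, the NRF1 core in capitals (CTTCCGG is the ETS core on the other strand).
Eif3c (chr7:126566367-126566466, minus strand): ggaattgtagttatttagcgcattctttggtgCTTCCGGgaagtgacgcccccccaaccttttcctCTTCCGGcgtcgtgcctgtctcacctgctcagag
Eif3d (chr15:77970825-77970924, minus strand): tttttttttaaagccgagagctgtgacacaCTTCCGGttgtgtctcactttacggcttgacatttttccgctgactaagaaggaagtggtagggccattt
Eif3g (chr9:20898591-20898690, minus strand): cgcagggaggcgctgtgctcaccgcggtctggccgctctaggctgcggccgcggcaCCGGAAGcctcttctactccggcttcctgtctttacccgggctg
Eif3l (chr15:79075123-79075222, plus strand): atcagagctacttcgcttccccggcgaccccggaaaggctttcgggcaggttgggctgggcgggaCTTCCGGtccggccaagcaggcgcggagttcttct
Eif3m (chr2:105017028-105017127, minus strand): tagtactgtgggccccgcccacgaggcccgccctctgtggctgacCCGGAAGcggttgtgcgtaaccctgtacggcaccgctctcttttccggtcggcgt
Eif3a (chr19:60790694-60790793, minus strand): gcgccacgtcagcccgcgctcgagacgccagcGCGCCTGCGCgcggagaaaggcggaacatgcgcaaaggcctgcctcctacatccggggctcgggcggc
The ETS cores began 34 to 70 bases before the start site in these 5 genes, and Eif3c held 2 of them. Of the 5, Eif3g, Eif3l and Eif3m rose, and Eif3c and Eif3d passed the adjusted p only. The ETS core did not go with a rise throughout the set. It also stood upstream of Eif1b and Eif4e2, which passed the adjusted p only. Eif1ad, Eif1ax, Eif5a and Eif5a2 held it too and passed neither threshold. Among eIF3 genes without it, Eif3a rose, Eif3b and Eif3f passed the adjusted p only, and Eif3k passed neither threshold.

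Of the 7 genes of eIF2 and eIF2B, 2 rose and 0 fell, and 4 were higher by the adjusted p alone (median log2 fold change 0.38). Of probe sets above background 8.3% rose, 6.87% fell and 19.9% were higher by the adjusted p alone. Eif2b5 encodes the catalytic subunit of eIF2B, which exchanges GDP for GTP on eIF2. It had 7.73, 7.75 and 7.78 in C26 pools, against 7.05, 7.03 and 7.03 in control pools, which differ by 0.72 on the log2 scale (SE 0.07, limma adjusted p = 0.000121). The 6 values fell in a pair of tight clusters, with an SD of 0.02 between C26 pools and 0.01 between control pools. Eif2b1, the regulatory alpha subunit, had 7.83, 7.99 and 8.10 in C26 pools, against 7.30, 7.18 and 7.15 in control pools (0.76, SE 0.09, limma adjusted p = 0.000402).

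The other subunits of both complexes were less uniform. Eif2s1 encodes eIF2 alpha, the subunit phosphorylated under stress, and had 8.07, 8.26 and 8.32 in C26 pools, against 7.92, 7.68 and 7.70 in control pools (log2 fold change 0.45, SE 0.10, limma adjusted p = 0.00926), which is under the 1.5-fold minimum. Eif2b4, the delta subunit of eIF2B, had 0.38 (adjusted p = 0.0194) and Eif2b3, the gamma subunit, 0.35 (0.051). Eif2s2, the beta subunit of eIF2, had 0.11 (0.483) and Eif2b2, the beta subunit of eIF2B, −0.10 (0.444), and the pools of both overlapped. C26 replicate 1 was the lowest C26 pool for 7 of the 7 genes, as it was for the eIF3 genes.

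Among the 5 genes of the eIF4A helicases and their partners, the C26 pools lay above the control pools for 5 of 5, and 2 rose. The shares among probe sets above background were 26.1% and 8.3%. Eif4a1, the main helicase of most tissues, had 8.10, 8.41 and 8.27 in C26 pools, against 7.75, 7.16 and 7.37 in control pools (log2 fold change 0.83, SE 0.15, limma adjusted p = 0.00323). Its control pools were the more spread, and the methods' t-test gave an adjusted p of 0.0555 and the test with unequal variances 0.101. Eif4a2, the paralog that is abundant in muscle, had 10.32, 10.45 and 10.52 in C26 pools, against 9.84, 9.76 and 9.69 in control pools (0.67, SE 0.08, limma adjusted p = 0.000497). Eif4b, which stimulates eIF4A, differed by 0.52 between the groups (SE 0.08, limma adjusted p = 0.00196). Eif4a3, the helicase of the exon junction complex, had 0.31 (0.0414), and Eif4h, a second stimulator of eIF4A, had 0.24 (0.0707). The difference Eif4a2 minus Eif4a1, taken within each array, changed by −0.16 between the groups (exact permutation test, two-sided, p = 0.4).

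The 3 eIF4G scaffolds differed from each other. Eif4g3 had 9.20, 9.24 and 9.17 in C26 pools, against 8.36, 8.29 and 8.37 in control pools, which differ by 0.87 on the log2 scale (SE 0.07, limma adjusted p = 5.81e-05), and the 3 C26 pools lay close together (SD 0.04). Eif4g1, the main scaffold of most tissues, had 10.55, 10.43 and 10.36 in C26 pools, against 10.33, 10.30 and 10.30 in control pools (0.14, SE 0.08, adjusted p = 0.237). Eif4g2, a homolog that lacks the eIF4E-binding site, had −0.02 (SE 0.08, adjusted p = 0.865). The within-array difference Eif4g3 minus Eif4g1 was −1.34, −1.19 and −1.19 in C26 pools, against −1.97, −2.02 and −1.93 in control pools. Its change of 0.73 had p = 0.1 in an exact permutation test (two-sided), the smallest p that 3 against 3 pools allow, and 0.125 after Benjamini-Hochberg adjustment over the 5 pairs compared in this way.

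Eif4e was the 1 gene of the 61 that fell. It had 5.15, 5.56 and 5.52 in C26 pools, against 6.07, 6.09 and 6.31 in control pools, so that the lowest control pool stood above the highest C26 pool. The log2 fold change was −0.75 (SE 0.12, limma adjusted p = 0.00217), and it lay between −0.84 and −0.62 across the 18 alternatives run. In a test with unequal variances the adjusted p was 0.0767. Probes of Eif4e can also match its processed pseudogenes, so the source of a part of this signal is uncertain. Its homologs did not fall with it. Eif4e2, which represses the translation of some mRNAs, had 0.32 (SE 0.08, adjusted p = 0.0119), with its C26 pools above its control pools. Eif4e3, a cap-binding homolog found in muscle, had −0.02 (SE 0.08, adjusted p = 0.863), and the germ-cell homolog Eif4e1b had 0.01 (SE 0.21, adjusted p = 0.99), with the widest spread between pools of the set. The within-array difference Eif4e3 minus Eif4e was 2.63, 2.28 and 2.28 in C26 pools, against 1.79, 1.62 and 1.60 in control pools, a change of 0.73 (exact permutation test, two-sided, p = 0.1, adjusted 0.125 over the 5 pairs).

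Of the 11 remaining initiation factor genes, 1 rose and 0 fell, and 5 were higher by the adjusted p alone (median log2 fold change 0.35). The 1 of 11 is near the 8.3% of probe sets above background that rose. By the adjusted p alone 19.9% of these were higher. Eif1a encodes a form of eIF1A, which keeps the scanning ribosome open until the start codon is met. It had 7.01, 7.20 and 7.27 in C26 pools, against 6.27, 6.24 and 6.34 in control pools (log2 fold change 0.88, SE 0.09, limma adjusted p = 0.000152). The X-linked paralog Eif1ax had a change of the opposite sign that did not pass the test, with 8.63, 8.49 and 8.47 in C26 pools and 8.73, 8.82 and 8.72 in control pools (−0.22, SE 0.08, adjusted p = 0.0641). The 2 paralogs are alike in sequence, so signal shared between their probe sets cannot be told apart.

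A pair of genes in this group stood just under the 1.5-fold minimum. Eif5b, whose product joins the ribosomal subunits, had 7.95, 8.07 and 8.18 in C26 pools, against 7.57, 7.44 and 7.54 in control pools (log2 fold change 0.55, SE 0.09, limma adjusted p = 0.00157). Eif2a, an initiator tRNA carrier distinct from eIF2, had 7.98, 8.11 and 8.22 in C26 pools, against 7.59, 7.51 and 7.56 in control pools (0.55, SE 0.09, adjusted p = 0.0015). Both passed the 1.5-fold minimum when the arrays were centred on their medians, with 0.62 for each. Eif1, which guards start codon choice, had 0.37 (adjusted p = 0.00573), and its paralog Eif1b had 0.41 (0.00968).

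Eif6, which holds the large ribosomal subunit apart from the small one, had 8.26, 8.61 and 8.76 in C26 pools, against 8.26, 8.22 and 8.10 in control pools. Its log2 fold change of 0.35 (SE 0.13) had a limma adjusted p of 0.0708, and C26 replicate 1 was level with the highest control pool to 2 decimals. Eif5a, the factor that carries hypusine and eases the ribosome past difficult stretches, had 10.69, 10.83 and 10.77 in C26 pools and 10.83, 10.81 and 10.75 in control pools. The groups overlapped and differed by −0.03 (SE 0.08, limma adjusted p = 0.803). Eif5a2, its paralog, had −0.15 (0.188). The within-array difference Eif5a2 minus Eif5a changed by −0.12, and this small change also reached the exact permutation p of 0.1 (two-sided, adjusted 0.125 over the 5 pairs). Eif5, the GTPase activator of eIF2, had 0.17 (0.195), and Eif2d, a tRNA-binding initiation factor, had 0.03 (0.842).

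**Figure D3:**
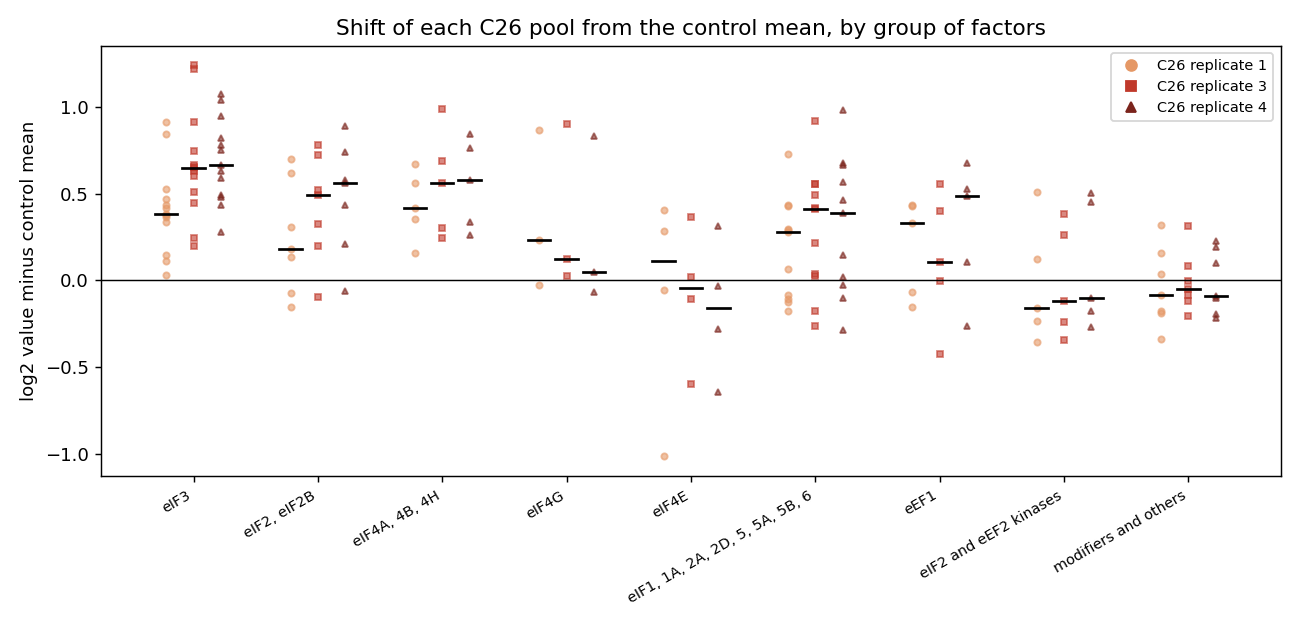
Shift of each C26 pool from the control mean (y axis, log2) for every gene, by group of factors (eEF2, a single gene, is not drawn), with 1 symbol per C26 pool and black bars at the medians. C26 replicate 1 lies lowest in eIF3 (median 0.38, against 0.65 and 0.66 in replicates 3 and 4) and in eIF2 with eIF2B (0.18, against 0.49 and 0.56), and the medians of the kinases and of the modifying proteins lie below 0 in all 3 pools.

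Over all 61 genes, the shift from the control mean had a median of 0.28 in C26 replicate 1, 0.33 in replicate 3 and 0.43 in replicate 4. Replicate 1 was the lowest C26 pool for 44 of the 61 genes (72.1%, against 37.1% of all probe sets). The SD was larger between C26 pools than between control pools for 45 of the 61 (73.8%, against 51.7%). Without C26 replicate 1, 17 genes rose and 1 fell. The 5 gained were Eef1a1, Eif2a, Eif3c, Eif3d and Eif5b, and the same 5 were gained with median centring of the arrays.

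Among elongation factors 0 of the 5 eEF1 genes passed both thresholds. By the adjusted p alone 2 were higher, against 19.9% of probe sets above background. Eef1a1 had 11.44, 11.56 and 11.68 in C26 pools, against 10.93, 11.04 and 11.04 in control pools (log2 fold change 0.56, SE 0.09, limma adjusted p = 0.00159), which is 1.47-fold and just under the minimum. Eef1a2, the muscle isoform, had 12.07, 12.13 and 12.24 in C26 pools and 12.11, 12.13 and 12.16 in control pools (0.01, SE 0.08, adjusted p = 0.922). All 3 control values of Eef1a2 lay within the range of its C26 values, whereas the pools of Eef1a1 did not overlap.

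The Eef1a2 minus Eef1a1 balance, the difference of both isoforms within each array, was compared between the groups. Probe sets differ in their response, so the size of this difference has no meaning of its own and its change between groups is the measurement. The difference was 0.63, 0.57 and 0.56 in C26 pools, against 1.18, 1.09 and 1.12 in control pools. The groups did not overlap, and the change was −0.54 (exact permutation test, two-sided, p = 0.1, the smallest p possible here, adjusted 0.125 over the 5 pairs). Leaving out each array in turn gave −0.56 to −0.52, and quantile normalization gave −0.40. Eef1a1 has many processed pseudogenes, and RNA read from these cannot be told apart from that of the gene.

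**Figure D4:**
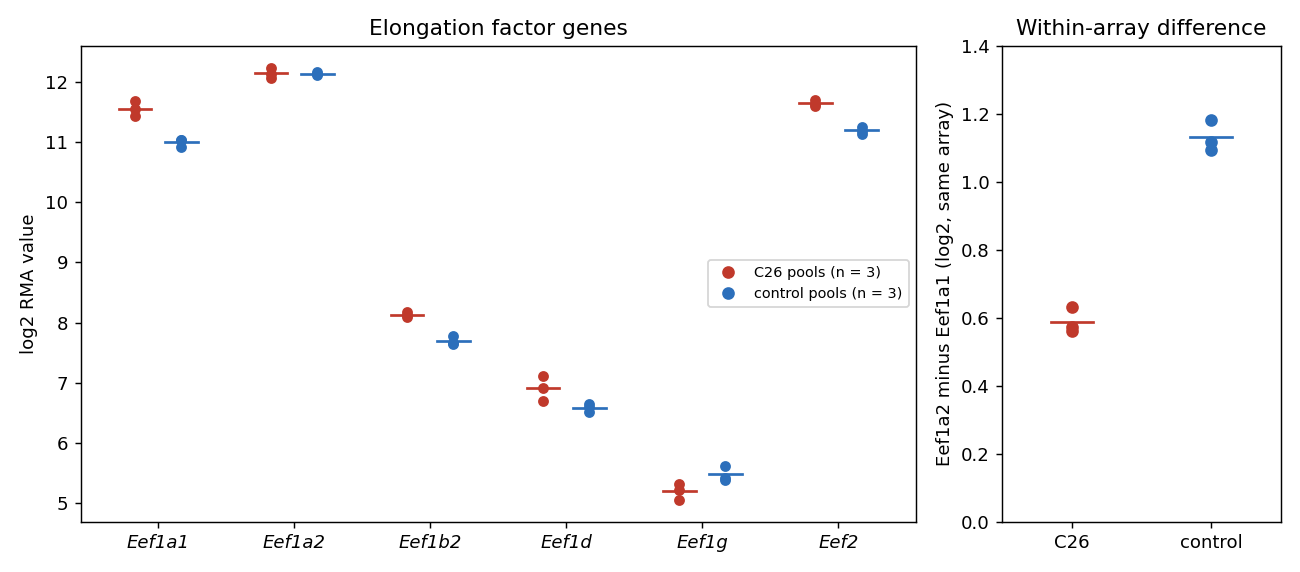
Left, log2 RMA values (y axis) of 6 elongation factor genes, 1 point per pool with C26 left and control right and a line at each mean; right, Eef1a2 minus Eef1a1 within each array. Eef1a1 and Eef2 are higher in every C26 pool than in any control pool while the groups of Eef1a2 overlap, and the difference is 0.56 to 0.63 in C26 pools against 1.09 to 1.18 in control pools.

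The subunits of the exchange factor of eEF1A did not move as one. Eef1b2, the beta subunit, had 8.12, 8.09 and 8.18 in C26 pools, against 7.77, 7.66 and 7.65 in control pools (log2 fold change 0.44, SE 0.08, limma adjusted p = 0.0026). Eef1d, the delta subunit, had 0.32 (SE 0.11, adjusted p = 0.0571) and Eef1g, the gamma subunit, had −0.28 (SE 0.10, adjusted p = 0.0666), and the pools of neither overlapped. Eef2, the translocase, had 11.63, 11.70 and 11.61 in C26 pools, against 11.14, 11.19 and 11.26 in control pools (0.45, SE 0.07, adjusted p = 0.00217), a 1.36-fold difference with tight groups on both sides. The palindromic E-box CACGTG, the letters read by MYC and related factors, occurred in the 250 bases upstream of 12 of the 48 genes (25%), against 6.86% of all genes in the table and 9.53% of coding genes above background. In Eef2 it began 43 bases before the start site, as shown in capitals below.
Eef2 (chr10:81176531-81176630, plus strand): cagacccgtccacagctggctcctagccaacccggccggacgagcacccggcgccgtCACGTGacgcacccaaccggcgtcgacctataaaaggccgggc
The composite element TTGCATCA, read by C/EBP and ATF factors, was found upstream of 0 of the 48 genes (0.918% of all genes in the table and 0.652% of coding genes above background), which says only that these letters are not in the windows searched. The other 2 of the 6 motifs searched were no more frequent than among coding genes above background, with CCAAT upstream of 16 of the 48 genes (33.3%, against 37.5% of all genes in the table and 39.4% of coding genes above background) and TATAAA upstream of 4 (8.33%, against 14.3% and 8.86%). Of the 9 genes that rose and have a promoter in the table, 3 held an ETS core, 3 CCAAT, 1 the E-box, 1 the NRF1 core and 0 TATAAA.

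The kinases that restrain both steps were divided. Eif2ak4 encodes GCN2, the eIF2 kinase that senses uncharged tRNA, and had 5.98, 5.85 and 5.92 in C26 pools, against 5.39, 5.45 and 5.55 in control pools (log2 fold change 0.45, SE 0.08, limma adjusted p = 0.00306). Eif2ak1, the heme-regulated kinase, had 0.30 (SE 0.10, adjusted p = 0.0601). The other eIF2 kinases lay on the other side of 0, with −0.22 (SE 0.09, adjusted p = 0.107) for Eif2ak3, which encodes PERK of the endoplasmic reticulum, and −0.19 (SE 0.07, adjusted p = 0.0884) for Eif2ak2, which encodes the double-stranded RNA sensor PKR. The means of Eif2ak2, 3.97 in C26 pools and 4.17 in control pools, stood close to the background of 3.82, so little can be read from its change. Eef2k, the kinase that inactivates eEF2, had 7.65, 7.46 and 7.54 in C26 pools, against 7.75, 7.89 and 7.78 in control pools (−0.26, SE 0.08, adjusted p = 0.0455). Its adjusted p was 0.0734 in the methods' t-test and 0.0996 in the test with unequal variances. In limma it was 0.111 with median centring, 0.0217 with an intensity trend and 0.0215 with quantile normalization. Eef2k was the only gene besides Eif4e that was lower by the limma adjusted p. The groups of all 5 kinases were apart, with the C26 pools above for 2 and below for 3. Such separation was common, with 19.3% above and 24.6% below over all probe sets. Among probe sets above background the shares were 26.1% and 29.7%.

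The 7 genes of modifying and binding proteins gave 0 calls by either rule and a median log2 fold change of −0.01. The methyltransferases of eEF1A had −0.25 (Eef1akmt1, adjusted p = 0.0579), −0.12 (Eef1akmt2, 0.279) and 0.06 (Eef1aknmt, 0.765), and that of eEF2, Eef2kmt, had 0.08 (0.525). Eif4enif1, which shuttles eIF4E to the nucleus, had 0.22 (0.063). Eef1e1, a part of the aminoacyl-tRNA synthetase complex, had −0.13 (0.307), and Eif1ad, a protein with an eIF1A-like domain, had −0.01 (0.941).

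Genes that control the factors were counted by the same rule, by which 5.94% of all probe sets rose and 4.95% fell. Among probe sets above background 8.3% rose and 6.87% fell, and by the adjusted p alone 19.9% were higher and 20.6% lower. The lists below are short, and their counts were not tested against these shares. Of 14 genes of 4E-binding proteins and cap control, 3 rose, namely Eif4ebp1, which encodes the main inhibitor of eIF4E (log2 fold change 2.46, SE 0.09), Mknk2, a kinase of eIF4E (1.25, SE 0.08), and Paip2b, which binds poly(A)-binding protein (0.63, SE 0.11). None of the 14 fell, and 8 were higher by the adjusted p alone. Eif4ebp1 had 10.72, 10.72 and 10.86 in C26 pools, against 8.25, 8.20 and 8.46 in control pools, so the cap-binding gene and the gene of its inhibitor changed in opposite directions. Eif4ebp2 had 0.08 and Eif4ebp3 0.38, and neither passed both thresholds.

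Of 7 genes of the eIF2 phosphatase and the GCN2 arm, 4 rose and 0 fell. Ppp1r15a, the stress-induced targeting subunit of the eIF2 phosphatase, had 7.58, 7.74 and 7.66 in C26 pools, against 5.80, 5.78 and 5.72 in control pools (log2 fold change 1.90, SE 0.08, limma adjusted p = 2.28e-06). Impact, an inhibitor of GCN2 activation, had 1.28 (SE 0.10), Atf4, the transcription factor whose mRNA is translated when eIF2 is phosphorylated, 0.92 (SE 0.08), and Gcn1, the partner of GCN2 on the ribosome, 0.61 (SE 0.09). Ddit3, which encodes CHOP, had −0.30 (SE 0.13, adjusted p = 0.11).

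Of 11 genes of mTORC1 and S6 kinase, 3 rose, namely Rheb, its activator (0.75, SE 0.11), Mtor (0.62, SE 0.07) and Tsc1, its inhibitor (0.59, SE 0.08), and 1 fell, Deptor, another inhibitor (−0.79, SE 0.10). The probe set of Rps6 lay below background. Of 8 termination and recycling genes 2 rose, the release factor Etf1 (0.60, SE 0.08) and the recycling factor Abce1 (0.59, SE 0.08). Of 9 genes that modify eIF5A and eEF2, 0 were called by either rule. The 10 factors of mitochondrial translation, which work apart from the cytosolic ones, gave 0 calls and had a median log2 fold change of −0.27. By the adjusted p alone 5 were lower and 1 higher, against 20.6% and 19.9% of probe sets above background. The 5 were Mtif2 (−0.51), Tsfm (−0.49), Guf1 (−0.46), Gfm2 (−0.32) and Mtrf1l (−0.25), and the 1 was Mtif3 (0.43).

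The muscle label fits its markers, of which 10 of 10 were above background, with a summed level (log2 of the summed linear values) of 15.45 to 15.51 in C26 pools and 15.62 to 15.66 in control pools, and 1 of the 10, Mylpf, fell. By the adjusted p alone 3 were lower, namely Mylpf, Pvalb (log2 fold change −0.51) and Mb (−0.47), and the log2 fold change was negative for 10 of 10. Among probe sets above background 8.3% rose and 6.87% fell. Of 12 macrophage markers 6 rose (summed level 10.59 to 10.67 in C26 pools, 9.90 to 10.07 in control pools), and 8 were higher by the adjusted p alone. The markers that passed neither rule were Cd68 (log2 fold change 0.41), Csf1r (0.02), Adgre1 (0.00) and Fcgr1 (−0.11). Of 12 neutrophil markers 8 rose (10.33 to 10.80 in C26 pools, 7.22 to 7.37 in control pools). This sum rested mainly on Lcn2, and without it, a choice made after seeing the data, the summed level was 8.09 to 8.31 in C26 pools and 6.93 to 7.05 in control pools. Below background in both groups were 4 of the 12, among them Ngp, which is counted among the 8. Of 6 fibroblast markers 3 fell (11.61 to 11.84 in C26 pools, 12.65 to 12.85 in control pools). These were Col1a1 (log2 fold change −2.61), Col1a2 (−2.29) and Dpt (−0.79). By the adjusted p alone Lum was also lower (−0.46) and Pdgfra was higher (0.50), whereas Dcn had 0.03. Of 5 endothelial markers 1 rose and 1 fell (9.60 to 9.85 in C26 pools, against 9.86 to 9.94). Vwf rose (log2 fold change 0.69) and Kdr fell (−1.21). Cdh5 was lower by the adjusted p alone (−0.43), and Pecam1 and Tek passed neither rule. Both measured erythroid markers rose (8.16 to 8.77, against 7.23 to 7.59), and of 6 lymphocyte markers 0 were called, with 4 below background. Their part in the values of the translation factor genes was not tested.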

How the data were processed

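Muscle RNA of 3 C26 and 3 control pools (RNA integrity number at least 8.0) was measured on Affymetrix Mouse Gene 1.0 ST arrays. The deposited log2 values were made by the authors in GenePattern (Brainarray custom CDF, version 13) by RMA, which corrects background, normalizes by quantiles and summarizes per gene, and no further scaling was applied. The probes have a genome build not given in the sources used here. Of the 21212 probe sets, 2420 carry no platform name; these were named through Entrez number where the RefSeq gene table (GRCm38.p6) holds it.

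C26 and control pools were fitted in R 4.3.3 with limma 3.58.1 (lmFit, eBayes, two-sided, prior degrees of freedom 4.52), in place of the methods' t-test, which was an alternative. Within-array differences were tested by exact permutation in Python 3.11.15 with SciPy 1.17.1. Scripts were tested on simulated data. All 61 genes are accounted for. Pool values are given for called genes, those just under 1.5-fold, and Eef1a1, Eef1a2, Eef2, Eif4e, Eif4g1, Eif2s1, Eif5a and Eif6; a few more (Eef1b2, Eef2k, Eif1ax, Eif2ak4) and the uncalled pathway genes named were chosen after their values were seen. Members and lists were chosen with earlier results of these data known. Alternatives were other tests, thresholds, limma settings, scalings and filters, a replicate block, and leaving out each array. Precision is limited by the number of arrays.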

Additional observations from a re-analysis of the deposited data

How the results depend on the processing

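The main counts were 12 genes higher and 1 lower in C26 muscle. With no fold minimum they were 29 and 2, with a 2-fold minimum 2 and 0, and with a test of unequal variances 7 and 0; the first 2 settings change the threshold itself, and the cause of the last was not tested. Other settings stayed within 1.5 times, namely 10 and 1 with the methods' t-test, 17 and 1 with median centring, 10 and 1 with quantile or cyclic loess normalization, and 12 and 1 with an intensity trend, robust eBayes or either filter on dim probe sets. Leaving out each array gave 11 to 17 higher and 1 lower, with 17 without C26 replicate 1. The pools share 2 replicate numbers, and same-numbered pools did not deviate together (correlations of −0.06 and −0.06). With the number as a replicate block 9 were higher and 1 lower, and the calls of Eif3e, Eif3l and Eif3m were lost. Numbers 2 and 4 each belong to a single pool, so in this fit the change rests on replicates 1 and 3 alone. The call of Eif3m was also lost with the methods' t-test and without control replicate 2 (0.54), and that of Eif3l without C26 replicate 3 (0.56) or 4 (0.52). The change in the Eef1a2 minus Eef1a1 balance lay between −0.56 and −0.40 in every alternative run, and no result changed sign among called genes. All 3 scalings moved the median of all probe sets by less than 0.1 (log2).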
